A study of Mus musculus with 8 samples.

Results

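The plasma carriers are proteins that the liver secretes into blood, where they bind hormones, vitamins, fatty acids, heme and minerals. The 10 carriers described here are albumin (Alb), alpha-fetoprotein (Afp), the vitamin D-binding protein (Gc), transthyretin (Ttr), retinol-binding protein 4 (Rbp4), the alpha-1-microglobulin/bikunin precursor (Ambp), fetuin-A (Ahsg), fetuin-B (Fetub), hemopexin (Hpx) and zinc-alpha-2-glycoprotein (Azgp1). They were chosen by symbol from the 55487 genes of the count table, with their counts in both groups and their shares of all counts in view, so their own values are a description and carry no test. All 10 were among the 14353 genes with enough counts to be compared.

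The study asked how loss of the clock gene Bmal1 in the host changes the stroma of a tumor. MC38 mouse colorectal cancer cells labelled with GFP were implanted under the skin of Bmal1+/+ and Bmal1-/- mice, both bred from Bmal1+/- founders, and the stromal vascular fraction, meaning the cells left when GFP-positive tumor cells were removed by sorting, gave 4 RNA-seq libraries per genotype. The deletion is in every cell of the host and not in the implanted tumor cells, and all 8 libraries share the MC38 tumor. The mouse strain, age and sex of these samples are not given in the sources used here. The study's methods do not give the hour of collection.

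The labels were checked first. Total counts ran from 14783346 to 18449143 in the Bmal1+/+ libraries and from 14054825 to 15624815 in the others. Bmal1 itself (Arntl) was measured at 0.959 to 2.7 normalized CPM in Bmal1+/+ libraries and at 30.1 to 34.9 CPM in the 4 libraries labelled Bmal1-/-. That goes against a loss of the transcript, but counts per gene do not show whether the gene is functional. The text therefore speaks of the libraries labelled Bmal1-/-. CPM are counts divided by the library total, with edgeR's TMM factors, per 1000000 counts. Xist was at 842 to 1093 CPM in every Bmal1+/+ library and at no more than 0.748 CPM in the others, and 4 Y-linked genes showed the opposite pattern, so sex and genotype label cannot be told apart in any comparison below. As for the labelled cell type, markers of fibroblasts summed to 145 to 229 CPM in Bmal1+/+ libraries and 105 to 111 CPM in the others, markers of endothelium to 137 to 170 and 79.4 to 115 CPM, and markers of macrophages to 322 to 383 and 141 to 242 CPM. A list of 16 liver enzymes, such as Cps1 of the urea cycle, summed to 22937 to 30061 CPM in Bmal1+/+ libraries and to 17425 to 25518 CPM in those labelled Bmal1-/-. Over the 8 libraries the liver enzymes took 1.71% to 2.92% of counts and the fibroblast markers 0.0105% to 0.0223%. These values go against the labelled stromal fraction, so the carrier levels below are not taken as those of tumor stroma. The source of the liver transcripts was not tested, and in bulk RNA fewer cells of a type and less RNA per cell cannot be told apart.

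As background, hepatocytes make most of these proteins and release them through the secretory pathway. Albumin, alpha-fetoprotein, Gc and afamin form 1 gene family; albumin is the main protein of adult plasma and alpha-fetoprotein its fetal counterpart, silenced after birth. Transthyretin carries thyroid hormone and holds the small retinol-binding protein in plasma, the fetuins keep calcium mineral soluble or inhibit proteases, and hemopexin clears free heme and rises in inflammation. The clock-controlled factor Dbp is named for its binding to the D site of the albumin promoter.

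Together the carriers took a share of all counts that was 2.09 times as large in the Bmal1+/+ libraries as in those labelled Bmal1-/-. Their share was 8.71%, 9.08%, 9.38% and 9.06% in Bmal1+/+ replicates 1 to 4 and 4.24%, 4.05%, 4.19% and 4.84% in the corresponding libraries labelled Bmal1-/-. The means were 9.05% ± 0.273 and 4.33% ± 0.35 (SD, n = 4), and the groups did not overlap. The widest 95% Wilson interval of any single carrier's share spanned 0.0261 percentage points, which covers counting error only. The 9 carriers other than Alb did not share the difference. They took 2.11% to 2.3% in Bmal1+/+ libraries and 2.28%, 2.31% and 2.62% in 3 of the others, and 3.59% in replicate 4, so that the groups overlapped. Alb made up 74.4% to 76.7% of the carrier counts in Bmal1+/+ libraries and 25.8% to 45.5% in those labelled Bmal1-/-.

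**Figure D1:**
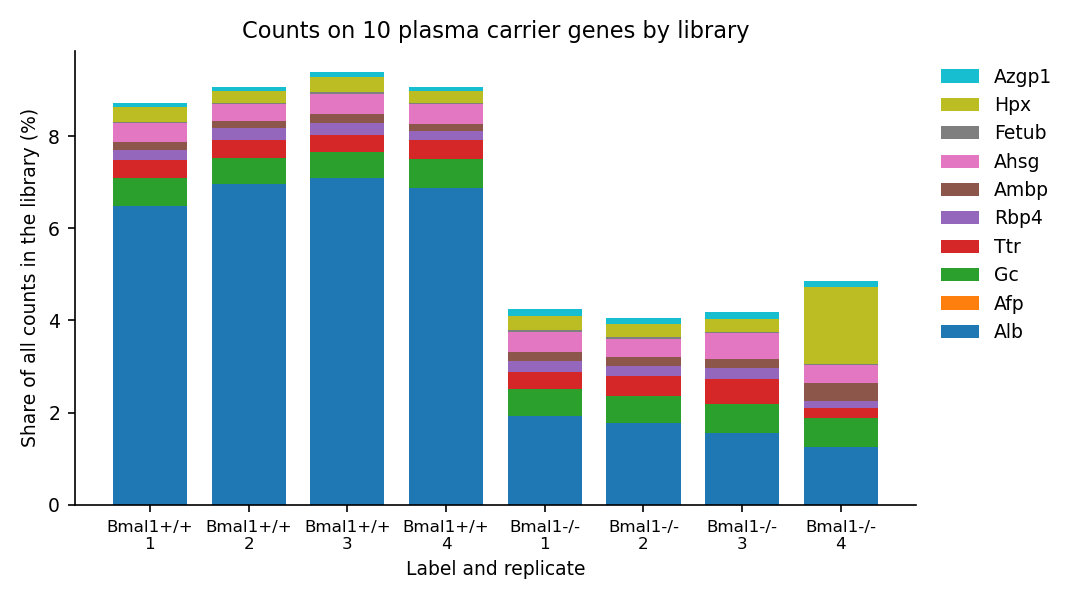
Share of all counts in each library (percent, y axis) that fell on each of the 10 carriers, stacked, for the 8 libraries (x axis). The Alb segment is 6.48% to 7.08% in Bmal1+/+ libraries and 1.25% to 1.93% in those labelled Bmal1-/-, and the Hpx segment stands out at 1.66% in Bmal1-/- replicate 4.

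Alb was lower and Azgp1 higher in every library labelled Bmal1-/- than in any Bmal1+/+ library, and the groups overlapped for the other 8 carriers; among all tested genes 33.4% did not overlap. By edgeR's quasi-likelihood test 1 of the 10 carriers was called lower and 1 higher at an adjusted p below 0.05, against 16.2% and 14.9% of all tested genes, 31.1% in either direction and 41.4% of those whose mean reached 100 CPM. Because the choice of the carriers used this contrast, nothing is read from these counts. The same 2 genes were called under all 19 alternative settings. Over the 10 carriers the median log2 fold change was -0.00, beside 0.02 over all tested genes.

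**Figure D2:**
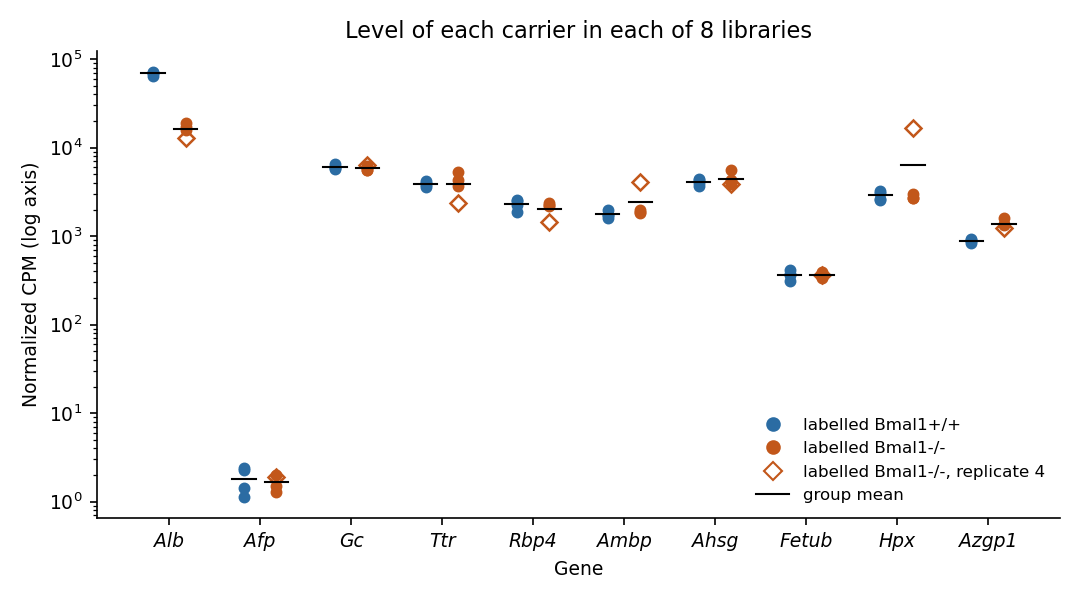
Normalized CPM (log axis) of each carrier in each library, with Bmal1+/+ libraries as blue circles, libraries labelled Bmal1-/- as orange circles, their replicate 4 as an open diamond and group means as black lines. Alb and Azgp1 are the genes whose groups are apart, and the diamond leaves the other libraries of its label for Hpx and Ambp upward and for Ttr and Rbp4 downward.

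Albumin (Alb, ENSMUSG00000029368) is encoded on chromosome 5 of GRCm38 from 90460897 to 90476602, plus strand. It was measured at 64200, 71741, 70141 and 70492 CPM in Bmal1+/+ replicates 1 to 4. In the libraries labelled Bmal1-/- it was measured at 18795, 17257, 15683 and 12721 CPM. Every library of the second group was far below every library of the first, and replicate 4 was the lowest of all. The log2 fold change was -2.10 (standard error 0.20). As a place among all tested genes, 300, or 2.09%, had a lower log2 fold change, and among the 1441 genes whose mean reached 100 CPM, 51 were at or below it, Alb included. By count Alb ranked 1 among all genes in 7 of 8 libraries and 7 in Bmal1-/- replicate 4, where C3, Trf, Hpx, Hp, Fga and mt-Co1 stood above it.

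The fall in Alb was not matched by the liver enzymes measured in the same libraries. Alb counts were 2.39 to 3.07 times the summed counts on the 16 enzymes in Bmal1+/+ libraries and 0.73 to 0.757 times in those labelled Bmal1-/-, where the 4 values lay within a narrow range. The enzyme share itself overlapped between groups, at 2.24% to 2.92% against 1.71% to 2.62%. Of the 16 enzymes 4 fell and 2 rose by edgeR's quasi-likelihood test, beside 16.2% lower and 14.9% higher among all tested genes. With library size set to the enzyme counts, the log2 fold change of Alb was -1.90.

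Alpha-fetoprotein (Afp, ENSMUSG00000054932), next to Alb on chromosome 5 from 90490737 to 90508907 on the same strand, was barely detected. It had 17 to 41 counts in Bmal1+/+ libraries and 18 to 32 in those labelled Bmal1-/-, or 1.82 ± 0.629 and 1.67 ± 0.333 CPM (SD, n = 4). The groups overlapped, and the log2 fold change of -0.12 (standard error 0.29) was smaller than its error. An antisense gene overlapping Afp, Gm43449, had at most 5 counts in any library. Most other oncofetal genes were at or near 0 counts. Of 9 such genes 2 were tested, Dlk1, Lin28b and Igf2bp1 had 0 counts in all libraries, which allows 3 counts or 0.163 to 0.213 CPM, and Gpc3, a fetal liver glypican, was at 1.21 and 0.653 CPM (adjusted p = 0.054 by edgeR's quasi-likelihood test). Cd24a was lower with a log2 fold change of -1.75 (adjusted p = 0.046), at 3.6 against 1.05 CPM with overlapping groups, and that call was lost in 10 of 18 alternatives, among them without Bmal1+/+ replicate 2, where it was -0.90.

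The promoters of the albumin neighbours are shown because their levels lie far apart and 1 of them differed by label. RefSeq windows on GRCm38.p6, which run from 250 bases before each annotated start to 50 bases after it, were found for 9 of the 10 carriers, 11 windows in all; none is shown for Ttr. The 250 bases before the start are printed 5′ to 3′, with motif matches in capitals.
Alb chr5:90460620-90460869 plus strand: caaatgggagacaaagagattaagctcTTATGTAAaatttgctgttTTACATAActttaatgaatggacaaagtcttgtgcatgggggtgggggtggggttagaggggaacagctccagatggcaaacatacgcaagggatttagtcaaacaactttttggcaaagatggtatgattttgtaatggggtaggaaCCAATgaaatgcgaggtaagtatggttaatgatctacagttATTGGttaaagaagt
Afp chr5:90490464-90490713 plus strand: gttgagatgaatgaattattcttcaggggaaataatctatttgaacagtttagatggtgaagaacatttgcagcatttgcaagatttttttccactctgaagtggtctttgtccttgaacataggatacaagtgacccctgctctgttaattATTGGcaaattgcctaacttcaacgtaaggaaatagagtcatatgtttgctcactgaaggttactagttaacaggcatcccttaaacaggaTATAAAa
In the Alb window the capitals mark 2 matches to the D-box letters TTATGTAA, the first 223 bases before the start on the gene's strand and the second 204 bases before it on the other strand, and 2 matches to CCAAT or its complement. The Afp capitals mark 1 CCAAT match on the other strand and 1 TATAAA. The D-box letters searched were TTATGTAA and TTACGTAA on both strands, and Alb was the only carrier whose windows held them, as did 1.06% of 32851 RefSeq promoters. No carrier window held the E-box CACGTG, found in 7.15% of promoters. CCAAT occurred in 37.4% of promoters and TATAAA, searched on the gene's strand only, in 8.32%. A match is a description of these letters and not of binding. Only exact letters were searched, so D-box sites with other letters stay in lower case. Whether either marked stretch of Alb is the D site for which Dbp is named was not tested.

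Of the 18 regulators of Alb and Afp on the list, all were tested, 3 fell, 3 rose and 12 did not pass edgeR's quasi-likelihood test. This count and those of the lists below stand beside 16.2% lower and 14.9% higher, or 31.1% together, among all tested genes. Dbp, the D-box activator, was at 66.9 to 113 CPM in Bmal1+/+ libraries and 3.72 to 6.96 CPM in those labelled Bmal1-/- (log2 fold change -4.32, standard error 0.25, adjusted p = 4.1e-06 by that test). Tef, its relative, fell to 126 from 248 CPM (log2 fold change -0.98, adjusted p = 0.00097 by edgeR), and Nfil3, a repressor of the same sites, rose to 53.6 from 22.5 CPM (1.25, adjusted p = 0.00012). Hlf, the remaining relative, was at 68.3 ± 22.3 and 61.6 ± 12 CPM (SD, n = 4) and did not pass. The zinc-finger homeobox gene Zhx3 rose (log2 fold change 0.51, adjusted p = 0.011 by edgeR). Hnf4a, Cebpa, Foxa2, Zbtb20 and Zhx2 did not pass, with log2 fold changes between -0.29 and -0.15. Cebpb was lower (-0.66, adjusted p = 0.017 by edgeR), a call lost in 2 of 19 alternatives, 1 of them with library size set to the liver enzymes.

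Within 200 kb of Alb and Afp, the other family member afamin (Afm), a vitamin E carrier 42.3 kb from Alb, fell (log2 fold change -0.75, standard error 0.16, adjusted p = 0.0058 by edgeR's quasi-likelihood test). Its CPM were 328 to 361 in Bmal1+/+ libraries and 147 to 236 in the others. Alb fell further than Afm: the ratio of their FPKM, the authors' counts divided by library total and gene length, was 259 to 291 in Bmal1+/+ libraries and 97 to 115 in those labelled Bmal1-/-. Of the remaining neighbours Rassf6 was lower (-0.59, adjusted p = 0.018 by edgeR), whereas Ankrd17 (-0.34) and 5830473C10Rik (0.14) did not pass. Around the carriers together, 64 protein-coding genes lay within this distance and 48 were tested, of which 9 fell and 11 rose, beside 31.1% called among all tested genes. Of these 20 calls 10 were lost in at least 1 alternative, among them those of Rassf6 (4 of 19), Zkscan1 (10 of 19) and Zfp113 (3 of 19).

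The vitamin D-binding protein (Gc, ENSMUSG00000035540, chromosome 5 from 89417522 to 89457898, minus strand) hardly moved. It was measured at 6111, 5863, 5742 and 6558 CPM in Bmal1+/+ replicates and at 5662, 5590, 6197 and 6439 CPM in libraries labelled Bmal1-/-. The groups overlapped throughout, and the log2 fold change was -0.02 (standard error 0.14). Per length, the Alb level was 8.01 to 9.33 times that of Gc in Bmal1+/+ libraries and 1.51 to 2.53 times in the others. Among the genes that handle vitamin D, Cyp27a1, which hydroxylates the vitamin, was higher (log2 fold change 0.48, adjusted p = 0.041 by edgeR's quasi-likelihood test), a call lost in 8 of 19 alternatives, and Cyp2r1 did not pass. Cyp27b1, Cyp24a1 and the receptor Vdr had at most 5 counts in any library.

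Transthyretin (Ttr) and retinol-binding protein 4 (Rbp4) circulate as 1 complex, and the mean level of each was similar in the 2 groups. Ttr was measured at 3811, 3945, 3617 and 4239 CPM in Bmal1+/+ libraries and at 3701, 4307, 5354 and 2360 CPM in those labelled Bmal1-/-. Of the latter, 4307 and 5354 CPM lay above the Bmal1+/+ range and 2360 CPM below it. Rbp4 (ENSMUSG00000024990, chromosome 19 from 38116629 to 38125281, minus strand) was measured at 2224, 2591, 2508 and 1865 CPM and at 2250, 2179, 2352 and 1428 CPM. Replicate 4 of the second group was the lowest of all 8 libraries for both genes, and without it neither gene separated the groups. The log2 fold changes were 0.01 (standard error 0.23) for Ttr and -0.16 (0.19) for Rbp4, and without that library they were 0.19 (0.15) and -0.02 (0.14). The ratio of Ttr to Rbp4 FPKM overlapped between groups, at 2.55 to 4.02 and 2.91 to 4.03.

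Several genes of retinoid handling changed. Of 16 such genes 12 were tested, 5 fell and 3 rose by edgeR's quasi-likelihood test. Those that fell were the retinol dehydrogenase Rdh16 (232 against 27.1 CPM, log2 fold change -3.09, adjusted p = 2.1e-05), Lrat, which esterifies retinol for storage (-1.11, adjusted p = 0.0033), the carotene-cleaving enzyme Bco1 (-1.59), the retinoic acid hydroxylase Cyp26a1 (-1.80) and the receptor Rarb (-2.25). The Rbp4 receptor of liver, Stra6l, rose from 135 to 259 CPM (log2 fold change 0.94, adjusted p = 0.005 by edgeR), and so did Dhrs3 (0.95) and Rara (0.87). Stra6, the receptor of other tissues, had 0 counts in all libraries, which allows up to 3 counts per library. Of the cell type markers tested, 6 of 9 for fibroblasts, 4 of 6 for endothelium and 5 of 6 for macrophages also fell by edgeR. Among all tested genes 16.2% fell. The part of these cell types in the falls of retinoid genes was not tested.

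Ambp (ENSMUSG00000028356, chromosome 4 from 63143275 to 63154799, minus strand) encodes alpha-1-microglobulin and bikunin, which are cut from 1 precursor. It was measured at 1715, 1756, 1999 and 1593 CPM in Bmal1+/+ libraries and at 1892, 1814, 1958 and 4064 CPM in those labelled Bmal1-/-. The groups overlapped apart from replicate 4, whose value was 2.15 times the mean of the other libraries of its label. The log2 fold change was 0.46 (standard error 0.26), and 0.10 (0.11) without that library. Bikunin is joined to heavy chains such as those of Itih1, Itih2 and Itih3, to which Itih4 is related. Of these 4 genes Itih1 (log2 fold change 0.77, adjusted p = 0.0017 by edgeR's quasi-likelihood test) and Itih3 (1.96, adjusted p = 0.0098) rose while Itih2 and Itih4 did not pass. Without replicate 4 the log2 fold change of Itih3 was 1.18 and that of Itih4 -0.44, called lower. In replicate 4 Itih3 was 3.9 and Itih4 3.56 times the mean of the other libraries of its label, while Itih1 was 1.22 and Itih2 0.986 times.

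The 2 fetuins, Ahsg (ENSMUSG00000022868, chromosome 16 from 22891277 to 22899449) and Fetub (ENSMUSG00000022871, from 22918334 to 22939778), are neighbours 18.9 kb apart on the plus strand, and neither separated the groups. Ahsg was measured at 4000, 3661, 4303 and 4400 CPM and, in libraries labelled Bmal1-/-, at 4286, 3854, 5597 and 3853 CPM. Fetub was measured at 313, 363, 417 and 377 CPM and at 368, 333, 396 and 360 CPM. The groups overlapped for both genes, and replicate 4 lay inside the range of the other libraries of its label for Fetub and level with replicate 2 for Ahsg. The log2 fold changes were 0.10 (standard error 0.17) and -0.01 (0.12). The ratio of Ahsg to Fetub FPKM was 8.09 to 10.3 in Bmal1+/+ libraries and 8.58 to 11.3 in the others. Their cystatin-type relatives on the same stretch of chromosome, Hrg, Kng1 and Kng2, and the cystatin Cst3 did not pass edgeR's quasi-likelihood test, with log2 fold changes from -0.26 to 0.07. Without Bmal1-/- replicate 4, Kng1 (log2 fold change -0.40, adjusted p = 0.018 by edgeR) and Kng2 (-0.53, adjusted p = 0.0036) were called lower. Dnajb11, a chaperone of the endoplasmic reticulum 11.6 kb from Ahsg, rose (0.77, adjusted p = 0.0045). The antisense gene Gm30505 overlaps Ahsg and had at most 35 counts.

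Hemopexin (Hpx, ENSMUSG00000030895, chromosome 7 from 105591613 to 105600137, minus strand) had the widest spread of the 10. It was measured at 3077, 2663, 3279 and 2536 CPM in Bmal1+/+ libraries and at 2968, 2723, 2677 and 16907 CPM in those labelled Bmal1-/-. Replicates 1 to 3 of the second group lay within the range of the first, and replicate 4 was 6.06 times their mean. The log2 fold change of 1.13 (standard error 0.58) rested on that library and was -0.05 (0.13) without it. Hpx ranked between 35 and 55 by count in the other 7 libraries and 3 in replicate 4. The ratio of Hpx to Ttr FPKM was 0.339 to 0.616 in those 7 libraries and 4.86 in replicate 4. Haptoglobin (Hp), which binds free hemoglobin, was at 1106 to 2179 CPM in Bmal1+/+ libraries and at 15552 CPM in replicate 4, against 1845 to 3877 CPM in the other libraries of its label.

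Zinc-alpha-2-glycoprotein (Azgp1, ENSMUSG00000037053, chromosome 5 from 137981520 to 137990233, plus strand), a secreted protein with an MHC class I fold known as a lipid-mobilizing factor, was higher with the label. It was measured at 886, 904, 938 and 827 CPM in Bmal1+/+ libraries. In the libraries labelled Bmal1-/- it was measured at 1369, 1322, 1596 and 1242 CPM. The groups did not overlap, and replicate 4 was the lowest of the second group. The log2 fold change was 0.64 (standard error 0.13), and 0.69 (0.11) without replicate 4. Nearby, the connexin gene Gjc3, 18.4 kb away on the other strand, rose with a log2 fold change of 2.03 (adjusted p = 0.0011 by edgeR's quasi-likelihood test) from at most 101 counts, and Zkscan1, Cops6, Mcm7 and Ap4m1 rose too, while Pilrb1 (a call lost in 9 of 18 alternatives) and Zfp113 fell.

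The promoters of Hpx, which differed in 1 library, and of Azgp1, which differed by label, are printed for comparison with that of Alb.
Hpx chr7:105600117-105600366 minus strand: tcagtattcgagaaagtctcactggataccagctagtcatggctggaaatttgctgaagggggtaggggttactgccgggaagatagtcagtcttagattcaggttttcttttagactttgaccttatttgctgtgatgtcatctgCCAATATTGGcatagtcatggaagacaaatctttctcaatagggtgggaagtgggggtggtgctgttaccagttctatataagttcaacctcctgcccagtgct
Azgp1 chr5:137981271-137981520 plus strand: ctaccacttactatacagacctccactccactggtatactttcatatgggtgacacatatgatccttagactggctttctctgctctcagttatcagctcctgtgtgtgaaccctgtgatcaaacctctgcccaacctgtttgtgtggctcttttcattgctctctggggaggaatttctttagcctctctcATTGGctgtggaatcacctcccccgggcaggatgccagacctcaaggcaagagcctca
The capitals mark CCAAT on either strand, where the 2 matches of Hpx lie end to end, and 1 match in Azgp1. Neither window held the D-box letters of the Alb window or a match to TTCCNGGAA or TTCCNNGAA, which are STAT-type patterns found in 4.81% of all promoters.

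**Figure D3:**
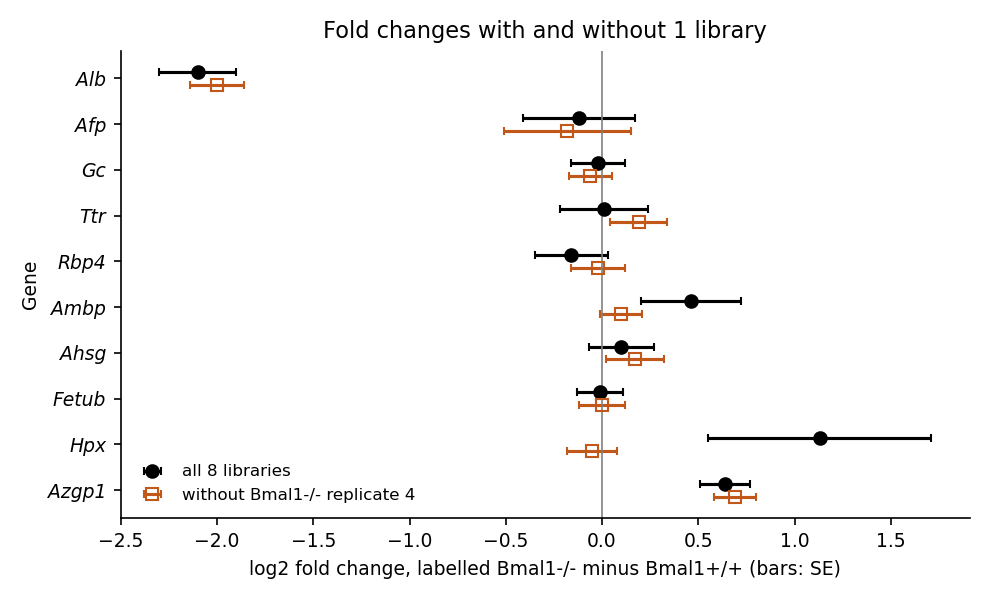
Log2 fold change of each carrier (x axis, libraries labelled Bmal1-/- minus Bmal1+/+, bars are standard errors) from all 8 libraries (black circles) and without Bmal1-/- replicate 4 (open squares). Alb stays below -1.90 and Azgp1 goes from 0.64 to 0.69, whereas Hpx goes from 1.13 to -0.05 and Ambp from 0.46 to 0.10.

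Replicate 4 of the libraries labelled Bmal1-/- stood apart for several carriers. It lay at least 1.5-fold above the highest other library of its label for 2 of the 10, Hpx and Ambp, and at least 1.5-fold below the lowest for 2, Ttr and Rbp4; among all tested genes these shares were 5.64% and 4.59%, and among those whose mean reached 100 CPM they were 6.11% and 6.94%. A list of 14 acute-phase genes took 6.87% of counts in that library, against 1.29% to 1.62% in the other libraries of its label and 0.927% to 1.22% in Bmal1+/+ libraries. All 14 were above the mean of replicates 1 to 3 there, with a median log2 ratio of 2.92. Below it were 14 of the 16 liver enzymes, with a median of -0.42. Among all 14353 tested genes 6815 were above that mean and 7528 below it, with a median of -0.02. Marker sums differed in replicate 4 too. Macrophage markers were at 242 CPM there against 141 to 178 CPM in replicates 1 to 3. Lymphocyte markers were at 16.5 against 7.81 to 14.3 CPM, and epithelial markers at 354 against 209 to 246 CPM. The sums of fibroblasts (110 CPM) and endothelium (105 CPM) lay within the range of the other libraries of the label. The lymphocyte sum rose mainly through Ptprc, at 13.8 against 4.26 to 8.85 CPM, while Cd4 was lowest of the label there, at 0.745 CPM. The epithelial sum rose through Krt8 (215 CPM) and Krt18 (138 CPM), while Epcam (0.135 CPM) and Krt19 (0.406 CPM) were lowest of the label. The part of any of these lists in the carrier values was not tested.

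**Figure D4:**
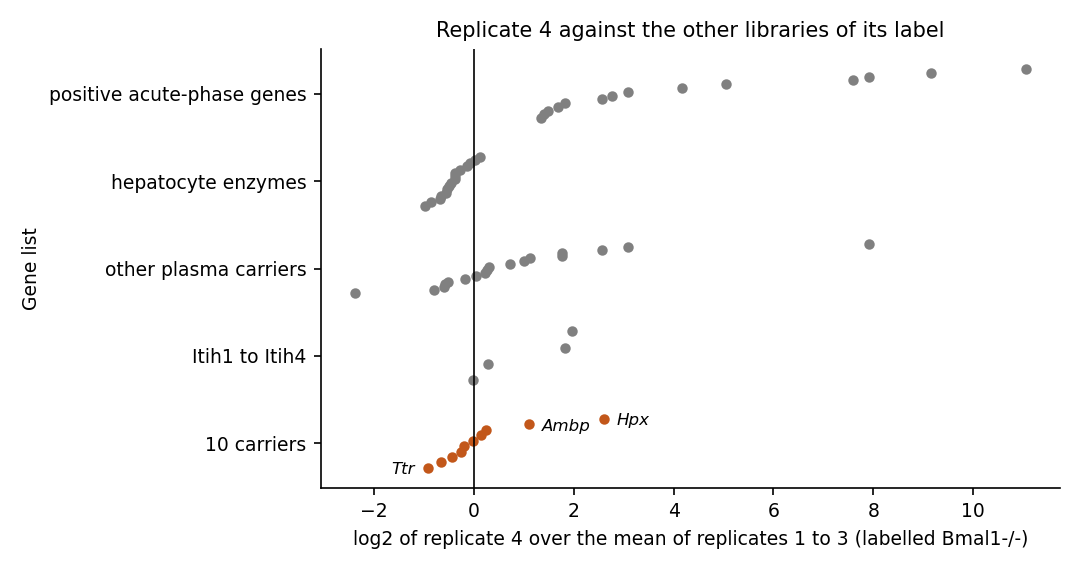
Log2 ratio of Bmal1-/- replicate 4 to the mean of replicates 1 to 3 of that label (x axis) for each gene of 5 lists (y axis, 1 point per gene with counts in each of those libraries; Hp, Orm1, Orm2 and Itih4 stand in 2 lists). All 14 acute-phase genes lie right of 0, from 1.35 to 11.06, while the 10 carriers run from -0.92 for Ttr to 2.6 for Hpx.

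Compared per length on the authors' FPKM, the order of the carriers was the same in both groups apart from Hpx, Rbp4 and Ambp. The place of Hpx in the second group rests on replicate 4. Rbp4 and Ambp changed places, and in the second group every Ambp value was above every Rbp4 value. In Bmal1+/+ libraries the mean FPKM were 26717 for Alb, 3258 for Ttr, 3075 for Gc, 1641 for Hpx, 1084 for Rbp4, 1066 for Ambp, 879 for Ahsg, 409 for Azgp1, 98.3 for Fetub and 0.421 for Afp. Ttr and Gc overlapped in range, as did Rbp4 and Ambp, and the other neighbours in the order were apart. In libraries labelled Bmal1-/- the means were 6364 for Alb, 3593 for Hpx, 3354 for Ttr, 3080 for Gc, 1485 for Ambp, 989 for Rbp4, 962 for Ahsg, 648 for Azgp1, 99.2 for Fetub and 0.395 for Afp. Hpx was at 1744, 1604 and 1535 FPKM in replicates 1 to 3 of that label, below every Gc value, and at 9490 in replicate 4. With all libraries, Alb overlapped with Hpx, Hpx with Ttr, Ttr with Gc, and Rbp4 with Ahsg.

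The genes most like each carrier were sought among 8153 genes whose mean reached 10 CPM, by Pearson r of log2 CPM over the 8 libraries, as a description in which the points share label and library. For Alb they were Per3, Cyp2b9 and Gstt2 (each r = 0.997), and for Azgp1 they included B3gat3 (0.998) and Sec61b (0.994). Hpx and Ambp had each other among their closest 3 (r = 0.977) and shared Serping1, the C1 inhibitor (0.990 and 0.985), and replicate 4 of the libraries labelled Bmal1-/- was the highest library for both. The closest to Ttr were Uqcrfs1 (0.973) and Rbpms2 (0.972), and the closest to Rbp4 were Ybx1 (0.969), Rarres2 (0.961) and Ube2j2 (0.956). Copz1 was closest to Gc (0.961), Agap3 to Fetub (0.938) and Colgalt1 to Afp (0.939).

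The other plasma carriers, 20 genes of which 19 were tested, went both ways: 6 fell, 5 rose and 8 did not pass edgeR's quasi-likelihood test. Serpina6, the corticosteroid-binding globulin, fell from 939 to 56.3 CPM (log2 fold change -4.06, standard error 0.22, adjusted p = 2.4e-06 by edgeR), whereas Serpina7, the thyroxine-binding globulin, rose from 12.3 to 137 CPM (3.47, adjusted p = 0.0033), with 290 CPM in replicate 4 and a log2 fold change of 2.80 without it. A1bg was at 102 to 1629 CPM in Bmal1+/+ libraries and at 0 to 0.686 CPM, at most 11 counts, in the others. The cobalamin carrier Tcn2 (log2 fold change -1.18), the selenium carrier Selenop (-0.77) and Apom (-1.01) fell as well, the last 2 not when library size was set to the liver enzymes. The copper carrier Cp rose (1.22, adjusted p = 0.0082 by edgeR), as did Vtn (0.77), and the calls for Apoh (0.47) and C8g (0.45) were lost in 7 and 8 of 19 alternatives. Transferrin (Trf), the iron carrier, was at 9975 to 11645 CPM in Bmal1+/+ libraries and at 5336 to 6379 CPM in 3 of the others, with 20247 CPM in replicate 4. Over all 8 libraries its log2 fold change was -0.18 (adjusted p = 0.76 by edgeR), and without replicate 4 it was -0.86 (adjusted p = 0.0011).

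Genes through which plasma proteins are secreted or taken up were also counted. Of 33 secretory pathway genes 11 rose, 2 fell and 20 did not pass edgeR's quasi-likelihood test, with a median log2 fold change of 0.26 beside 0.02 over all tested genes. Those that rose include the disulfide isomerases Pdia6 (0.91, adjusted p = 0.0012 by edgeR) and Pdia4 (0.66), the translocon subunits Sec61b (0.81) and Sec61a1 (0.43) and the coat protein Sec13 (0.67). The rises of Srp9, Surf4, Ssr1, Spcs2 and Sec61g were lost in 7 to 14 of 19 alternatives, and both falls, of Lman1 and Sar1b, in 11. Of 11 uptake and recycling genes 8 were tested. Fcgrt, the receptor that rescues albumin from degradation, fell (-0.48, adjusted p = 0.021 by edgeR), a call lost in 4 of 19 alternatives, while Dab2 fell (-1.35) and Scarb1 rose (1.21). Asgr1, Asgr2 and Lrp1 did not pass. The marker sums of endothelium and macrophages were lower with the label too, and their part in the falls of Fcgrt and Dab2 was not tested. The kidney receptors Lrp2, Cubn and Amn had at most 24 counts. Over all these lists 102 of 120 genes were tested, 19 fell, 26 rose and 57 did not pass.

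**Figure D5:**
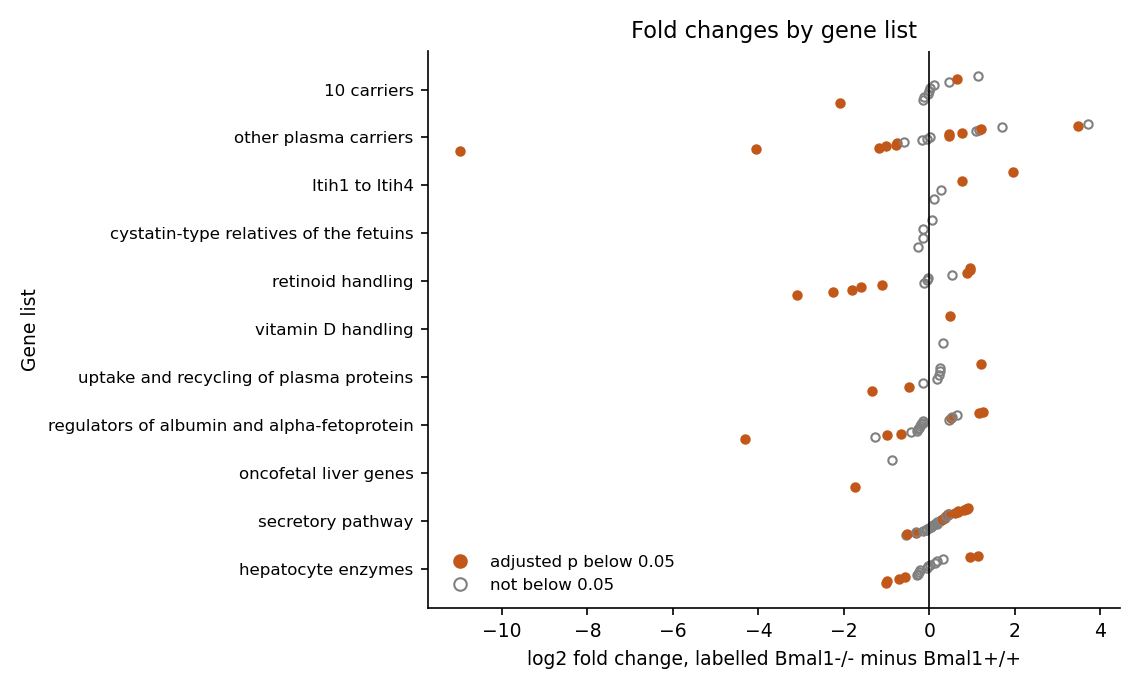
Log2 fold change (x axis, libraries labelled Bmal1-/- minus Bmal1+/+) of each tested gene in the carrier, pathway and liver enzyme lists (y axis), filled where the adjusted p was below 0.05. The 10 carriers run from -2.10 to 1.13, and the point at -10.99 is A1bg, whose fitted value depends on the prior count because its counts were near 0 in 1 group.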

How the data were processed

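RNA labelled as the stromal vascular fraction of MC38 tumors was sequenced from 4 samples labelled Bmal1+/+ and 4 labelled Bmal1-/-. The authors mapped reads to GRCm38 with HISAT2 and counted fragments per gene with StringTie, as the study's methods state; the submitters' processing notes name CASAVA 1.8 and TopHat2 2.0.6 instead, and strand use is not stated. The deposited counts are not normalized, and the deposited FPKM values divide by library total and gene length. The Bmal1-/- sample titled KO6 is replicate 4 by its description.

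The counts were fitted over all genes by the quasi-likelihood test of edgeR 4.0.16 in R 4.3.3, after filterByExpr and TMM scaling, with a prior count of 0.125 and Benjamini-Hochberg adjusted p below 0.05. Each standard error was taken from the log2 fold change and its F statistic. Labels do not state separate tumors, so p-values measure the spread between these samples. A count of 3 was the detection floor. Symbols came from GENCODE annotation of GRCm38, matching 99.4% of 55487 identifiers, and promoters from RefSeq. Libraries of 1 label differed by more than sampling noise. Plots used matplotlib 3.10.9 in Python 3.11.15.

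The carriers and all gene lists were chosen with earlier results of these data known. Named were all carriers, the partners and relatives on the lists, the 3 genes most like each carrier and protein-coding neighbours within 200 kb; other genes, and the 1.5-fold limit for replicate 4, were chosen after values were seen. The results of some genes that this rule names are not reported here. The 19 alternatives were DESeq2 1.42.0, its size factors, upper-quartile factors, library size only, library size from 16 liver enzymes, no filter, a filter of 10 counts in every sample, limma-voom (limma 3.58.1), a prior count of 2, limma on log2 of FPKM plus 0.1, the replicate number as a block, and leaving out each of the 8 samples.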

Additional observations from a re-analysis of the deposited data

Results flagged for a closer look

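In the libraries labelled Bmal1-/-, replicate 4 lay far from the other libraries for 2 carriers. Hpx was 16907 normalized CPM there, and its gap to the nearest library made up 0.98 of the group's range. Ambp was 4064 CPM, with a gap of 0.936 of the range. These are descriptions of values that were known when the carriers were chosen, and carry no test. The acute-phase genes moved with them in that library, and their part was not tested.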

How the results depend on the processing

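Alb was lower and Azgp1 higher in all 19 alternatives, and no other carrier was called in any, although DESeq2 gave Hpx no p-value. Of 190 carrier fold changes under these alternatives, 184 moved by less than the spread between replicates, and none of the called ones turned direction. Over all settings Alb ranged from -2.18 to -1.90 and Azgp1 from 0.55 to 0.87 (log2). Setting library size to the 16 liver enzymes changed most: it raised the median log2 fold change of all genes from 0.02 to 0.25 and the share of calls that were higher from 47.9% to 68.9%, reduced the genes called lower from 2322 to 1102, and reduced the pathway genes called lower from 19 to 12. Leaving out 1 library at a time gave 1893 to 2501 genes lower and 1706 to 2212 higher, 15 to 22 pathway genes lower and 18 to 30 higher, and 1 carrier in each direction every time. Hpx depended on 1 library: without Bmal1-/- replicate 4 its log2 fold change was -0.05 instead of 1.13.

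Replicate numbers did not pair the samples: deviations from the group means of same-numbered libraries correlated with r from -0.092 to 0.061. With the replicate block, 2064 genes were lower and 1809 higher, 15 pathway genes were lower and 21 higher, and the same 2 carriers were called. It ended 11 pathway calls, those of Apoh, C8g, Cd24a, Cebpb, Cyp27a1, Lman1, Sar1b, Spcs2, Srp9, Ssr1 and Surf4. At the depth of these libraries only Afp, with 17 to 41 counts, was limited by counting error.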
